A study of Canis lupus familiaris with 2 samples.

Results

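The dog genome annotation behind these data lists 44 collagen genes among 23510 features, chosen here as every symbol made of COL, a number, A and a number. Collagen is the main structural protein of the extracellular matrix, and the genes encode its chains. RNA came from MDCK cells, an established canine kidney line that forms a sheet of columnar epithelium. The cultures compared stood under medium 2 cm or 50 cm high, both to day 3, and each medium height gave 1 library. Both cultures were grown on an insert with a semipermeable membrane in serum-containing medium, and neither carried a genetic change or a drug. The height of the medium sets the static pressure on the cells, and the labels call the 2-cm-high-medium culture the one without pressure. With 1 culture per height, no value has a replicate error and no difference could be tested. The labels do not say whether the cultures were sequenced together, so medium height and any difference in preparation cannot be told apart. Levels are FPKM values, the fragments on a gene scaled to exon length and library size, which lets different genes be compared per length. Changes are ratios of 50-cm over 2-cm FPKM without a pseudocount. Because RNA was measured in bulk, fewer cells making a transcript and less transcript per cell cannot be told apart.

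A collagen molecule is a triple helix of 3 chains, which may come from 1 gene or from several. Fibrillar collagens such as types I, III and V build the fibres of connective tissue, with type V as a minor component that sits inside fibrils and limits their diameter. Type IV forms the sheet-like network of basement membranes under epithelia. Other types span the plasma membrane, coat fibrils, or tie the epithelium to the matrix below. Each chain must find partner chains in the endoplasmic reticulum, so the level of a chain is best read beside that of its partners.

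The label of the cells as kidney epithelium was checked against markers first. Of 6 epithelial markers, 5 lay above 1 FPKM in both cultures, and their summed level was 3555 FPKM at 2 cm and 3370 FPKM at 50 cm. The exception was CDH16, a kidney cadherin, at 1.96 and 0.676 FPKM. Of the fibroblast markers, 5 were in the files and summed to 0.221 and 0.247 FPKM, with THY1, DCN and LUM listed at 0 in both cultures. The 4 smooth muscle markers summed to 0.123 and 0.234 FPKM and the 5 endothelial markers to 0.474 and 0.277 FPKM. The collagen levels below were thus measured beside stromal markers at or near 0 in both cultures. A value listed at 0 in these data does not by itself show that a transcript was absent, as set out further below.

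Few collagens lay above 1 FPKM in the MDCK cultures, and a small number of chains made up nearly all of the collagen RNA. Of the 44 genes, 10 lay above 1 FPKM in both cultures, and 2 more did so only in 2-cm-high medium. A further 14 lay above 0 but not above 1 FPKM in both, 5 were listed at 0 in one culture, and 13 were listed at 0 in both. The summed collagen level was 526 FPKM at 2 cm and 612 FPKM at 50 cm, or 0.0877% and 0.0997% of the sum over all features. COL5A2, the second chain of type V, alone held 56.2% and 60.3% of the collagen sum. COL17A1, the transmembrane collagen of hemidesmosomes, held 26.8% and 25.1%. Without COL5A2, the collagen sum was 230 FPKM at 2 cm and 243 FPKM at 50 cm. The higher sum in 50-cm-high medium therefore came mostly from COL5A2.

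**Figure D1:**
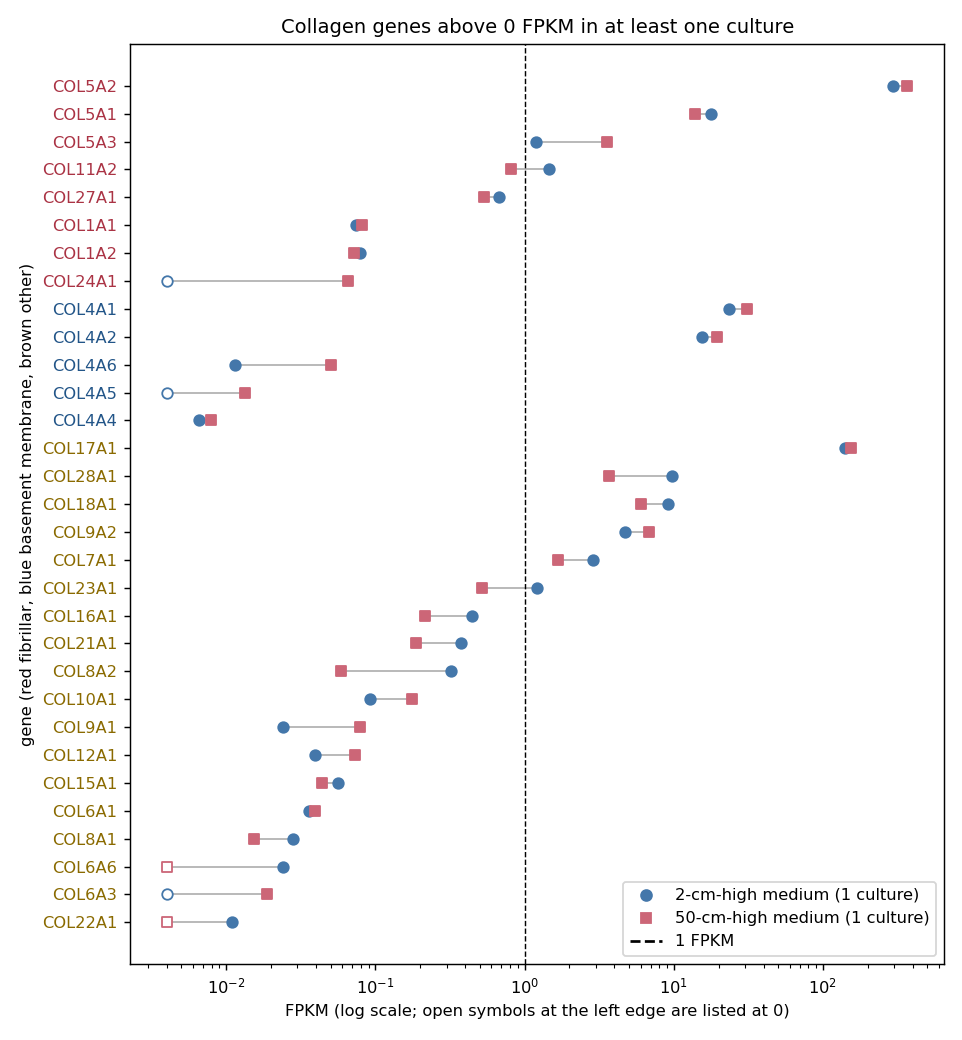
FPKM values on a log axis of the 31 collagen genes above 0 in at least one culture, with circles for the 2-cm-high-medium culture, squares for the 50-cm-high-medium culture and open symbols for values listed at 0. COL5A2 and COL17A1 lie above 100 FPKM in both cultures, whereas 19 of the 31 genes never pass the dashed line at 1 FPKM.

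The expressed collagens differed between the medium heights in both directions. Among the 10 collagens above 1 FPKM in both cultures, 6 were higher and 4 lower in 50-cm-high medium, with log2 ratios from -1.41 to 1.57 and a median of 0.22. Of all 11057 features above 1 FPKM in both, 5820 were higher and 5236 lower, with a median of 0.0146. The ratio passed 2-fold for 2 of the 10 collagens, COL5A3 upward and COL28A1 downward, and for 1.67% of all features, 0.389% upward and 1.28% downward. The family was chosen by its symbols, but with the measured ratio of COL5A3 already known, so this count is a description and supports nothing further. The next ratios inside the 2-fold limits were those of COL9A2 upward, at 1.46, and of COL7A1 downward, at 0.578. At 1.5-fold, 4 of the 10 collagens passed, 1 upward and 3 downward, against 7.19% of all features, 2.13% upward and 5.06% downward. Those beyond 1.5-fold on the lower side were COL28A1, COL7A1 and COL18A1. By class, the 3 fibrillar chains had a median log2 ratio of 0.32, the 2 basement membrane chains 0.37 and the 5 other chains -0.60. The basement membrane class was type IV only, so COL18A1, which also lies in basement membranes, counted among the other chains. The other chains were split, 2 higher and 3 lower, from -1.41 to 0.55, and their median was the value of COL18A1. The fibrillar median rests on chains that moved apart, since it turned to -0.0134 when COL11A2, above 1 FPKM in 2-cm-high medium only, was added.

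**Figure D2:**
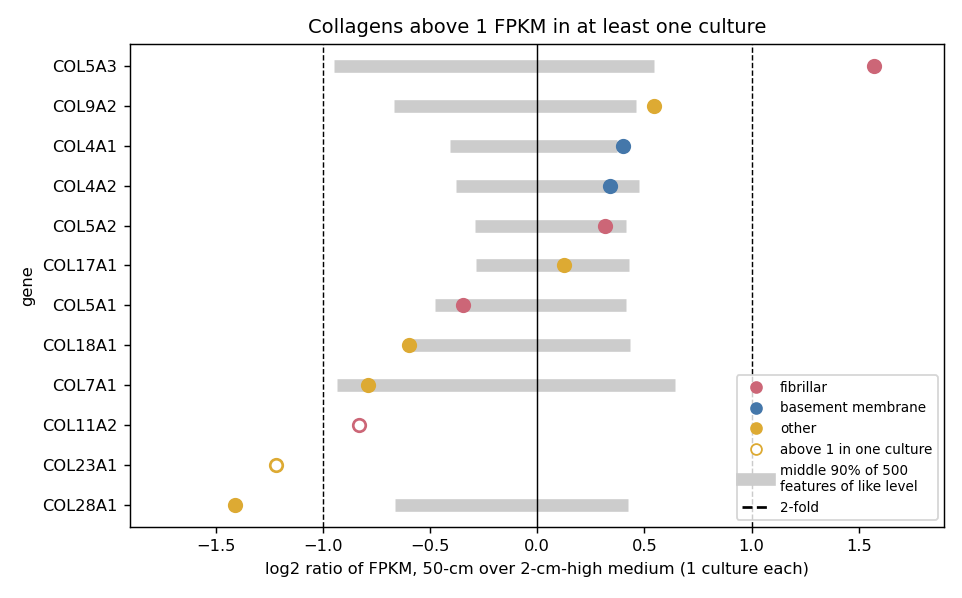
Log2 ratio of 50-cm over 2-cm FPKM for the 12 collagens above 1 FPKM in at least one culture (1 culture each, open symbols for those above 1 in one culture only), with grey bars for the middle 90% of the 500 features nearest in level and dashed lines at 2-fold. COL5A3 at 1.57 and COL28A1 at -1.41 lie far outside their grey bars, and COL9A2 and COL4A1 lie just above theirs.

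The 3 chains of type V collagen differed widely in level. Most type V molecules join a pair of α1 chains, from COL5A1, with an α2 chain, from COL5A2, and a rarer form has 1 chain of each of the 3 genes. COL5A2 had 296 FPKM at 2 cm and 369 FPKM at 50 cm, the highest collagen level in both. COL5A1, whose chain every common type V molecule needs, had 17.7 and 14.0 FPKM. COL5A3, the chain of the rarer form, had 1.20 and 3.56 FPKM. The order of the chains, α2 over α1 over α3, was thus the same in the cultures, but the distances between them changed.

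The 3 type V chains did not move together. COL5A3 was 2.97-fold higher in 50-cm-high medium, the rank 8 ratio from the top among all features above 1 FPKM in both cultures, and this ratio is what brought it to notice. Of the 500 features nearest to it in level, the middle 90% had ratios of 0.518 to 1.46, and 2 had a higher ratio. COL5A2 was 1.25-fold higher, with 57 of its 500 nearest features higher still. COL5A1 went the other way with a ratio of 0.787, and 46 of its 500 nearest features were lower. The COL5A2 and COL5A1 ratios therefore lay within the bulk of features of like level. COL5A3 lay outside its own, but it was chosen for its ratio, so this is a description only. Its 1.20 FPKM in 2-cm-high medium also lay close to the 1 FPKM limit. As level ratios within a culture, COL5A2 stood 16.7 times above COL5A1 in 2-cm-high medium and 26.4 times in 50-cm-high medium. COL5A1 stood 14.8 times above COL5A3 in 2-cm-high medium and 3.92 times in 50-cm-high medium. Even so, COL5A3 held only 0.228% and 0.582% of the summed collagen level.

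The other fibrillar chains were low or listed at 0. COL11A2, a chain of the cartilage collagen XI that is related to type V, had 1.45 FPKM at 2 cm and 0.815 FPKM at 50 cm, a ratio of 0.561. Its partner COL11A1, which can also join type V chains, was listed at 0 in both. COL27A1 had 0.678 and 0.531 FPKM. The chains of type I, the main collagen of skin and bone, were barely detected, with COL1A1 at 0.0745 and 0.0818 FPKM and COL1A2 at 0.0786 and 0.0719 FPKM. COL2A1 and COL3A1 were listed at 0 in both cultures. The high COL5A2 level thus stood beside type I chains under 0.1 FPKM, the collagen into whose fibrils type V is usually built.

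**Figure D3:**
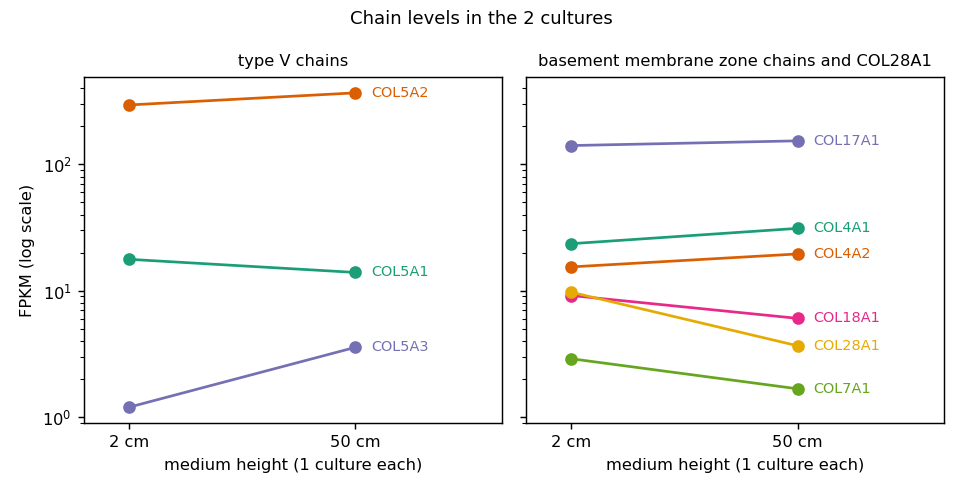
FPKM values on a log axis in the 2-cm- and 50-cm-high-medium cultures (1 culture each), for the 3 type V chains on the left and for COL17A1, COL4A1, COL4A2, COL18A1, COL28A1 and COL7A1 on the right. The COL5A3 line climbs from 1.20 to 3.56 FPKM below the flatter lines of its partners, and the COL28A1 line drops from 9.72 to 3.67 FPKM.

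The main basement membrane chains were both modestly higher in 50-cm-high medium. COL4A1 and COL4A2 encode the α1 and α2 chains of the type IV network that nearly all basement membranes contain. COL4A1 had 23.6 FPKM at 2 cm and 31.2 FPKM at 50 cm, a ratio of 1.32. COL4A2 had 15.4 and 19.6 FPKM, a ratio of 1.27. Their levels kept nearly the same proportion, with COL4A1 at 1.53 times COL4A2 in 2-cm-high medium and 1.59 times in 50-cm-high medium. Of the 500 features nearest in level, 20 had a higher ratio than COL4A1 and 51 a higher ratio than COL4A2. The remaining type IV chains, which form the specialised network of the glomerulus and some tubules, were near or at 0. COL4A3 was listed at 0 in both cultures and COL4A5 at 0 at 2 cm and 0.0134 FPKM at 50 cm. COL4A4 had 0.00659 and 0.00794 FPKM, and COL4A6 had 0.0115 and 0.0505 FPKM. Of the type IV genes, only COL4A1 and COL4A2 lay above 1 FPKM in either culture.

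Collagens that tie epithelium to its basement membrane did not share a direction. COL17A1 encodes a transmembrane protein of the hemidesmosome, the junction that anchors keratin filaments to the basement membrane. It had 141 FPKM at 2 cm and 154 FPKM at 50 cm, a ratio of 1.09, with 206 of its 500 nearest features higher. COL7A1, the chain of the anchoring fibrils on the matrix side of the same junction, had 2.89 and 1.67 FPKM, a ratio of 0.578. Features at the low level of COL7A1 scattered widely, the middle 90% running from 0.524 to 1.56, so its ratio lay within that range. COL18A1, a basement membrane proteoglycan from whose tail endostatin is cut, had 9.16 and 6.04 FPKM, a ratio of 0.660, with 30 of 500 nearest features lower. Its relative COL15A1 was far lower, at 0.0564 and 0.0440 FPKM. The abundant membrane-bound chain was thus nearly level, and the scarcer anchoring fibril and endostatin chains were lower in 50-cm-high medium.

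Outside these groups, COL28A1 showed the lowest ratio of any collagen above 1 FPKM in both cultures. It encodes a short collagen with von Willebrand factor A domains, best known around glial cells of peripheral nerve. COL28A1 had 9.72 FPKM at 2 cm and 3.67 FPKM at 50 cm, a ratio of 0.377, which ranked 37 from the bottom among the 11057 features above 1 FPKM in both cultures. Only 1 of the 500 features nearest in level was lower. In 2-cm-high medium it stood between COL4A2 and COL18A1 with 1.85% of the collagen sum, and in 50-cm-high medium, where it stood below COL18A1, its share was 0.599%. COL9A2 encodes 1 of the 3 chains of type IX, a fibril-associated collagen of cartilage, and had 4.71 and 6.88 FPKM, a ratio of 1.46. Of its partner chains, COL9A1 had 0.0240 and 0.0792 FPKM and COL9A3 was listed at 0 in both. COL23A1, a transmembrane collagen, had 1.20 and 0.517 FPKM, a ratio of 0.430. COL23A1 and COL11A2 were above 1 FPKM through the 2-cm-high-medium culture alone, so their lower values at 50 cm follow in part from that limit and were not counted.

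The remaining 14 collagens above 0 had at most 0.678 FPKM in 2-cm-high medium and at most 0.531 FPKM in 50-cm-high medium, and 7 were higher and 7 lower. At these levels some ratios were those of small whole read numbers, which give the fewest reads behind them and not the true number. Each read added 9.77% more FPKM at 50 cm than at 2 cm, so equal read numbers give a ratio of 1.10. Whole reads leave such steps in the ratios, and 65.6% of the 1978 features above 0.1 FPKM in both cultures with a mean of at most 1 FPKM had a ratio within 0.002% of one given by at most 40 reads in each. Among the collagens, 8 had such a ratio. At a wider tolerance of 0.05%, with at most 10 reads in each culture, COL8A1 had the ratio of 2 reads at 2 cm to 1 at 50 cm. At the same tolerance, COL9A1 had that of 1 read to 3 and COL4A6 that of 1 to 4. COL1A1 and COL6A1 lay exactly at equal read numbers, which may be as few as 1 read in each culture. COL8A2, a chain of the short-chain collagen VIII, had 0.323 and 0.0592 FPKM, the ratio of 6 reads to 1. COL16A1, a fibril-associated collagen, had 0.443 and 0.215 FPKM, the ratio of 34 reads to 15. The true numbers may be any multiple of these, and the fewest reads give the widest counting error. None of the 10 collagens above 1 FPKM in both cultures had a ratio of this kind. That does not show that many reads lay behind them, since COL4A4, at 0.00659 and 0.00794 FPKM, had none either.

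For the fewest reads, an exact 95% binomial (Clopper-Pearson) interval of the read share was turned into an interval of the ratio, which covers counting error only. For COL16A1, with a ratio of 0.484, the interval ran from 0.245 to 0.913. For COL23A1, at 23 reads to 9, it ran from 0.175 to 0.964. These intervals did not reach equal levels, although neither says anything of the variation between cultures. COL23A1 was above 1 FPKM through the 2-cm-high-medium culture alone, so its interval is a description and no test of a difference. For COL8A2, with the lowest ratio of the collagens above 0 in both cultures at 0.183, the interval of 0.00398 to 1.51 included equal levels. COL10A1, the collagen of growing cartilage, had 0.0914 and 0.176 FPKM, the ratio of 4 reads to 7, and its interval ran from 0.488 to 8.95. COL27A1, at 7 reads to 5, and COL1A2, at 6 reads to 5, also had intervals that included equal levels. For these 4 genes a difference was therefore not detectable at the fewest reads.

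**Figure D4:**
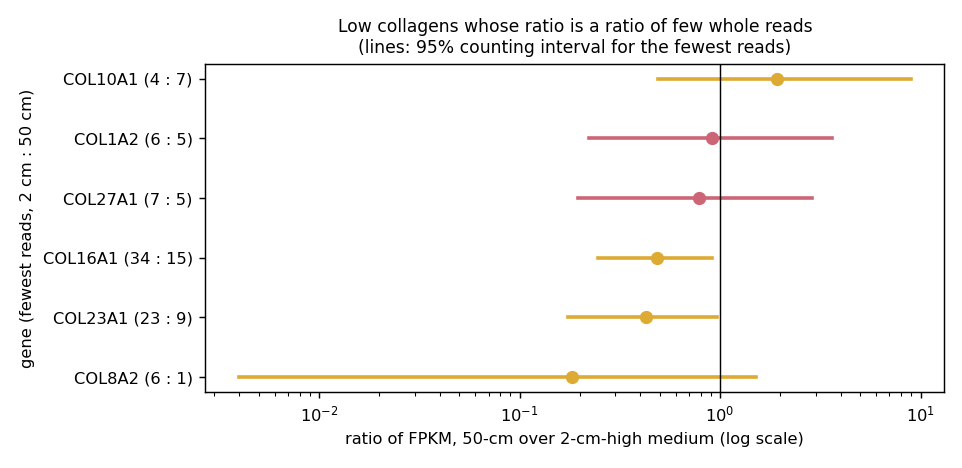
Ratio of 50-cm over 2-cm FPKM on a log axis for the 6 low collagens whose ratio lies within 0.002% of one of unequal whole reads (fewest reads in parentheses, red for fibrillar and yellow for other collagens), with lines for the exact 95% counting interval at the fewest reads. The lines of COL16A1 and COL23A1 stop short of equal levels at 1, at 0.913 and 0.964, and the other 4 cross it. COL23A1 is above 1 FPKM in 2-cm-high medium alone.

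A further 18 collagens were listed at 0 in one or both cultures. COL24A1, COL4A5 and COL6A3 were listed at 0 in 2-cm-high medium and at no more than 0.0659 FPKM in 50-cm-high medium. COL6A6 and COL22A1 were listed at 0 in 50-cm-high medium, with 0.0238 and 0.0110 FPKM in 2-cm-high medium. Listed at 0 in both were COL2A1, COL3A1, COL4A3, COL6A2, COL6A5, COL9A3, COL11A1, COL13A1, COL14A1, COL19A1, COL20A1, COL25A1 and COL26A1. ATP5O, a subunit of the ATP synthase that respiring cells use, was also listed at 0 in both, so a zero in these files does not show that a transcript was absent. Type VI, the beaded filament collagen of most connective tissues, stayed at or below 0.0396 FPKM in all 5 of its listed genes.

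Several collagen genes lie side by side in the genome, and the neighbours were compared. The positions came from the RefSeq gene table of another dog assembly, UU_Cfam_GSD_1.0, so only the order of genes was used and 43 of the 44 symbols matched. It has 7 pairs of collagen genes with no other protein-coding gene between their starts. COL4A1 and COL4A2 form 1 such pair and were both expressed, with ratios of 1.32 and 1.27. COL5A2 lies beside COL3A1, yet the first had the highest collagen level in both cultures and the second was listed at 0. As with ATP5O, the listed 0 of COL3A1 does not show that its transcript was absent. In the other 5 pairs, COL4A3 with COL4A4, COL4A5 with COL4A6, COL6A1 with COL6A2, COL6A5 with COL6A6 and COL19A1 with COL9A1, no gene passed 0.0792 FPKM in either culture. COL3A1 with COL5A2 was thus the only adjacent pair with 1 member above 1 FPKM in both cultures and 1 listed at 0.

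The genes that make, process and bind collagen passed the limits in shares near those of all features. Of 70 such genes on lists written for these data, 43 lay above 1 FPKM in both cultures, 30 higher and 13 lower in 50-cm-high medium. Their median log2 ratio was 0.0876, beside 0.0146 for all features. Of all 11057 features above 1 FPKM in both cultures, 5820 were higher and 5236 lower. The ratio passed 2-fold for 1 of the 43 genes, BGN, against 1.67% of all features, and 1.5-fold for 4, against 7.19%.

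Collagen chains are modified and folded in the endoplasmic reticulum, and 21 of the 23 genes for this step were above 1 FPKM in both cultures. None passed 2-fold, and the median log2 ratio was 0.13. In 50-cm-high medium 16 were higher and 5 lower, beside 5820 higher and 5236 lower of all 11057 features. P4HA1, a catalytic subunit of the prolyl hydroxylase that stabilises the triple helix, had 36.1 and 22.6 FPKM, a ratio of 0.626 and the only one of the list past 1.5-fold. The other catalytic subunits did not follow it, with P4HA2 at 93.7 and 88.5 FPKM and P4HA3 at 6.34 and 8.78 FPKM. SERPINH1, the collagen-specific chaperone HSP47, had 163 and 183 FPKM, and FKBP10, a prolyl isomerase of the same compartment, had 76.7 and 102 FPKM. LEPREL4, a partner of the collagen lysyl hydroxylation complex, had 38.6 and 54.0 FPKM, the highest ratio of the list at 1.40. The count of 1 in 21 past 1.5-fold is read beside the 7.19% of all features and is no result about the list.

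Outside the cell, propeptides are cut off and chains are cross-linked, and 7 of the 14 genes for this step were above 1 FPKM in both cultures. LOX, the lysyl oxidase that cross-links fibrillar collagen and elastin, had 31.0 and 47.5 FPKM, a ratio of 1.54. LOXL3, a related enzyme, had 2.35 and 1.37 FPKM, a ratio of 0.583. LOXL2, which acts on type IV, had 92.4 and 76.0 FPKM, and LOXL1 had 125 and 146 FPKM. The 4 lysyl oxidases above 1 FPKM were thus split, 2 higher and 2 lower. BMP1, the protease that removes the C-terminal propeptide of fibrillar chains, had 14.2 and 14.4 FPKM, and its enhancer PCOLCE had 2.09 and 1.64 FPKM. PXDN, which forms the sulfilimine bond of the type IV network, was listed at 0 in both.

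Among proteins of the fibril surface above 1 FPKM in both cultures, BGN had the highest ratio. BGN, the proteoglycan biglycan, had 3.15 FPKM at 2 cm and 6.73 FPKM at 50 cm, a ratio of 2.14, and 3 of its 500 nearest features were higher. SPARC, a collagen-binding matricellular protein, had 0.470 and 1.29 FPKM. It was above 1 FPKM through the 50-cm-high-medium culture alone, so its higher value there follows in part from that limit and was not counted. Its ratio of 2.74 is, for the fewest reads, that of 2 at 2 cm to 5 at 50 cm, with an interval of 0.449 to 28.8. The true read numbers may be any multiple of these, which would narrow that interval. FN1, the fibronectin on which cells assemble collagen fibrils, had 52.7 and 77.6 FPKM, a ratio of 1.47. TGFBI, which links collagens to integrins, was lower, at 31.4 and 25.3 FPKM. Of the 14 genes of this list, 4 lay above 1 FPKM in both cultures and 3 of these were higher, beside 5820 of all 11057 features.

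Receptors and basement membrane partners moved in both directions. ITGA2 and ITGB1, the subunits of the main epithelial collagen receptor, had 78.8 and 83.2 FPKM, and 169 and 207 FPKM, ratios of 1.06 and 1.23. MRC2, an endocytic receptor that takes up collagen, had 1.98 and 2.66 FPKM, the highest ratio of the receptors at 1.34. DDR1, a receptor tyrosine kinase that collagen activates, had 38.6 and 32.2 FPKM, and DDR2 had 2.57 and 2.09 FPKM. The 5 receptor genes above 1 FPKM in both cultures had a median log2 ratio of 0.0780, and none passed 1.5-fold, against 7.19% of all features. HSPG2, the basement membrane proteoglycan perlecan, had 70.1 and 78.4 FPKM, and LAMC1, the γ1 chain common to most laminins, had 85.3 and 79.3 FPKM. LAMB2, a laminin chain, had the lowest ratio of these partners, 0.787. NID1, which links laminin to type IV, was listed at 0 in both. The 6 basement membrane partners above 1 FPKM in both had a median log2 ratio of 0.0912, beside 0.37 for COL4A1 and COL4A2.

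**Figure D5:**
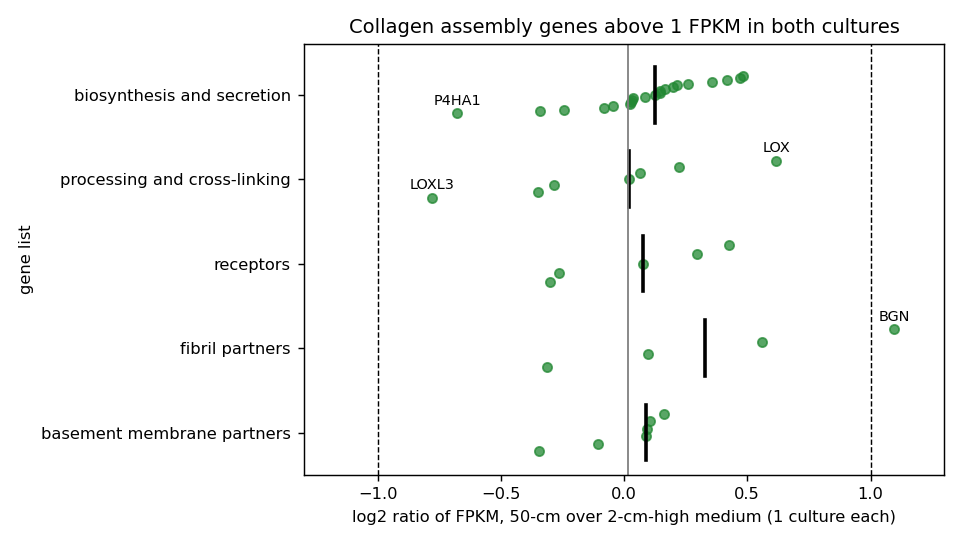
Log2 ratio of 50-cm over 2-cm FPKM for the 43 collagen assembly genes above 1 FPKM in both cultures, by list (1 culture each), with a black bar at each list's median, a grey line at the median of all features and dashed lines at 2-fold. BGN at 1.10 is the only gene beyond a dashed line, and the genes past 1.5-fold are named.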

How the data were processed

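RNA was sequenced by the authors as single reads of 75 bases from strand-specific mRNA libraries. Per the labels, TopHat2 (2.0.13), Bowtie2 (2.2.3) and SAMtools (0.1.19) placed the reads on CanFam3.1, and the deposited FPKM values are from Cuffnorm (2.2.1), with 1 library per medium height. The gene annotation and the scaling of Cuffnorm are not given in the sources used here, and nor is whether reads were assigned by strand. FPKM values keep no read numbers, so depth is known only from the steps that whole reads leave, and intervals cover counting error only.

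Features had to pass 1 FPKM in both cultures and 2-fold was the limit, as the study's methods state for their filter. The ratios were taken here with no pseudocount, and all shares of features past a limit were counted here. With 1 sample in each group no test was made, and the 500 features nearest in mean log2 FPKM describe the spread across genes, not error. The collagens, the collagen classes, the lists of collagen assembly genes and the marker lists were chosen with earlier results of these data known. Values are given for every collagen above 1 FPKM in at least one culture, the others are given by range, count or symbol, and listed genes are named when past 1.5-fold or when they act on a collagen described. Other low minima, pseudocounts and scalings were tried. Scripts were tested on simulated data and used Python 3.11.15, numpy 2.4.6, pandas 2.3.3, scipy 1.17.1 and matplotlib 3.10.9. No promoter or protein sequences were used here. One gene beside the collagens is not reported here.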

Additional observations from a re-analysis of the deposited data

How the results depend on the processing

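With 1 culture per medium height no result could be set against replicate error, and no paired or unpaired test was possible. An alternative value was taken as unmoved within 0.1 on the log2 scale, and a count within 1.5 times. Every collagen above 1 FPKM in both cultures kept its direction under the pseudocounts, recentring, quantile normalization and a total without the 10 highest features. The count of 2 collagens past 2-fold became 7 with any value above 0 in both, 4 above 0.1 FPKM, 0 above 5 FPKM, which removes COL5A3 and COL28A1, and 4 at 1.5-fold. The fibrillar median log2 ratio of 0.32 reversed to -0.0134 with FPKM above 1 in at least one culture, -0.13 with any value above 0, -0.34 above 0.1 FPKM and -0.0134 above 5 FPKM, as chains of opposite direction entered or left. The median of the other collagens, -0.60, moved to -0.89 above 0.1 FPKM and -0.24 above 5 FPKM. The COL5A3 ratio of 2.97 fell to 2.08 with a pseudocount of 1 and rose to 3.39 with quantile normalization. The count of 1 collagen assembly gene past 2-fold, BGN, became 2 with FPKM above 1 in at least one culture, 2 with any value above 0, 2 above 0.1 FPKM, 0 above 5 FPKM, 0 with a pseudocount of 1, and 4 at 1.5-fold. The basement membrane median stayed between 0.32 and 0.37.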

Other observations

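Genes next to the collagens were looked at on lists written after the collagen values had been seen, so the values are descriptions. COL17A1 works in the hemidesmosome with other proteins, and the 7 partners listed were all above 1 FPKM in both cultures. Of these, 6 were higher and 1 lower in 50-cm-high medium, beside 5820 higher and 5236 lower of all 11057 features. PLEC, the plectin that ties keratin filaments to the junction, had 86.1 FPKM at 2 cm and 139 FPKM at 50 cm, a ratio of 1.61 and the only one of the 7 past 1.5-fold, against 7.19% of all features. LAMA3 and LAMB3, laminin chains of the epithelial basement membrane, had 31.0 and 40.6 FPKM and 67.6 and 70.6 FPKM. ITGA6 had 18.8 and 23.5 FPKM and ITGB4 had 95.1 and 113 FPKM, whereas DST, which encodes a hemidesmosomal plakin, had 25.9 and 24.9 FPKM. The median log2 ratio of the 7 genes was 0.25, beside 0.12 for COL17A1 and -0.79 for COL7A1.

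Collagen-like triple helices also occur in proteins whose symbols do not follow the collagen pattern. Of 17 such genes listed, 10 were at 0 in both cultures and 2 lay above 1 FPKM in both. SFTPD, the collectin surfactant protein D, had 55.5 and 35.5 FPKM, a ratio of 0.638. SCARA3, a scavenger receptor, had 43.6 and 26.3 FPKM, a ratio of 0.603. Both stood above every collagen except COL5A2 and COL17A1 in 2-cm-high medium, and both were lower in 50-cm-high medium.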
